A study of Mus musculus with 6 samples.

Results

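Mitochondrial ribosomal proteins are the proteins of the ribosome inside mitochondria. Their genes were taken as all protein-coding mouse genes whose symbol begins with Mrpl or Mrps followed by a number, with pseudogenes left out, and 78 of the 32879 genes with a transcript record in the count data met this rule. They lie on 17 chromosomes. Of the 78 genes, 51 encode proteins of the large subunit, 26 encode proteins of the small subunit, and Mrps36 encodes a protein now known as a component of the 2-oxoglutarate dehydrogenase complex. Mrps18a and Mrps30 were counted with the large subunit, where their proteins sit in spite of their names. The symbols were matched by name, and no measured value entered this match. The family itself was chosen with earlier results of these data known.

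The mitochondrial ribosome translates the small set of messenger RNAs transcribed from mitochondrial DNA, all of which encode subunits of the oxidative phosphorylation complexes. Its ribosomal RNAs come from mitochondrial DNA, whereas its proteins are encoded in the nucleus, made in the cytosol and imported. Some of these proteins have a counterpart in bacteria, and others are found in mitochondria alone. In macrophages, mitochondrial respiration supports long-lived resident cells and alternative activation.

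RNA was sequenced from sorted peritoneal macrophages (PMs), with 1 library for each of 3 control and 3 diseased-BWF1 mice. Control mice were female New Zealand white/BALB/c F1 mice, which do not develop lupus, aged 33, 33 and 30 weeks (Control 1 to 3). Diseased-BWF1 mice were female New Zealand black/New Zealand white F1 mice, which are lupus-prone, with established disease, aged 31, 31 and 34 weeks (BWF1 1 to 3). No treatment is given for either group. PMs were sorted as F4/80+ CD11b+ cells, so the surface gate fixed which cells entered. The groups share the New Zealand white parent and differ both in disease and in the other parental strain, and these cannot be told apart here.

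Counts on genes ranged from 3376669 to 4604336 per mouse. All 10 macrophage markers looked up passed the filter on low counts, with summed normalised read counts of 144342 to 192327 in controls and 121162 to 141979 in diseased-BWF1 mice. Most of each sum came from Lyz2, with 96889 to 151745 in controls and 77188 to 96816 in diseased-BWF1 mice. Of the 10 markers, 5 were lower in every diseased-BWF1 mouse (11.1% of all tested genes were). These were Adgre1, Cd68, Lyz2, Timd4 and Icam2. No marker was higher in every diseased-BWF1 mouse, and 0 of the 10 were called. None of the B cell, T cell or mesothelial markers passed the filter. Summed normalised counts were at most 22.3 for B cell, 12.3 for T cell, 18.1 for neutrophil, 2.06 for mesothelial, 53.8 for dendritic cell and 6.18 for eosinophil and mast cell markers, with Ly6g, Mpo, Msln and Krt8 at 0 in all mice. Of the monocyte markers, Ccr2, a chemokine receptor gene, had normalised counts of 10.8, 8.24 and 2.29 in controls and 22.8, 6.09 and 31.2 in diseased-BWF1 mice, with overlap between the groups, and Ly6c2 had 1 count in all. The part of these cells in the results below was not tested.

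The genes of the mitochondrial ribosome were read lightly in these libraries. Together the 78 genes held 4084 to 5348 counts per mouse, or 0.116%, 0.113% and 0.137% of the counts on genes in Control 1 to 3 and 0.120%, 0.108% and 0.111% in BWF1 1 to 3. Control 3 held the largest share and BWF1 2 the smallest, and Control 1 and 2 lay among the diseased-BWF1 mice. In RNA pooled from sorted cells, fewer cells of a type and less RNA per cell cannot be told apart.

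A filter on low counts left 10505 genes for testing, among them 76 of the 78 genes. The gene Mrpl21, which encodes a large subunit protein with a bacterial counterpart, did not pass it, with 1, 0 and 1 counts in Control 1 to 3 and 1, 0 and 1 counts in BWF1 1 to 3. The gene Mrpl58, whose product is a peptidyl-tRNA hydrolase that releases peptides from stalled mitochondrial ribosomes, had 0, 0 and 2 counts in controls and 6, 0 and 7 counts in diseased-BWF1 mice. A count of 3, the most that an observed count of 0 allows, is worth 0.652 to 0.888 CPM in these libraries. Mrpl21 lay under this floor in every mouse and Mrpl58 in 4 of 6, and no difference was detectable at this depth.

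Levels were compared between genes per length, as counts per kilobase of transcript scaled over all genes as TPM are. The highest of the family were Mrpl33 and Mrpl52, with mean levels per length of 207 ± 10.1 and 122 ± 19.2 (SD, n = 6 mice). Mrpl33 encodes a small, bacterial-type protein and Mrpl52 a mitochondria-specific protein, both of the large subunit. They were followed by the small subunit genes Mrps15 at 63.2 ± 11.4 and Mrps33 at 56.5 ± 13.2 and by Mrpl23, of the large subunit, at 57.4 ± 6.53. Most other genes lay lower, in that 56 of 78 lay between 10 and 50 on this scale and the median over all 78 was 23.7.

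At the lower end of the tested genes stood Mrpl47 at 3.55 ± 0.808, Mrps14 at 4.74 ± 1.56, Mrps35 at 5.54 ± 1.15, Mrpl19 at 7.70 ± 0.948 and Mrpl17 at 8.71 ± 1.36 (SD, n = 6 mice). The products of Mrpl17, Mrpl19, Mrpl47 and Mrps14 have bacterial counterparts. The highest tested gene, Mrpl33, exceeded the lowest, Mrpl47, 58.5 times on this scale. The lengths used were 478 and 3364 bases, so this ratio rests in part on annotated length. The median level per length was 24.5 for the large subunit and 18.6 for the small subunit. When the 76 tested genes were put in order of level, the 6 mice separated neighbours in only 2 of 75 pairs, Mrpl33 from Mrpl52 and Mrpl52 from Mrps15. The rest of the order is not fixed by these data.

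**Figure D1:**
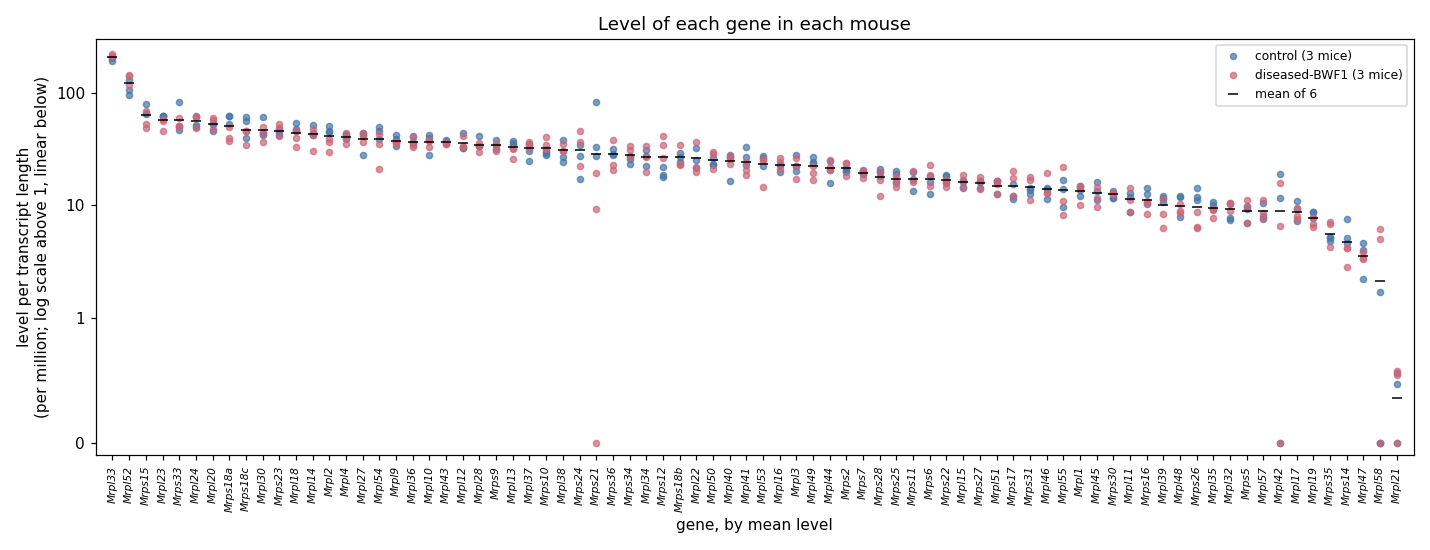
Level per length (counts per kilobase of transcript, scaled over all genes as TPM are; log axis above 1 and linear below) of the 78 genes, ordered by mean. Each point is 1 mouse, blue for the 3 control and red for the 3 diseased-BWF1 mice, and the black dash is the mean of 6; Mrpl33 and Mrpl52 stand above the rest, and Mrpl58 and Mrpl21 close the order at 2.13 and 0.357.

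Promoter sequences from RefSeq (GRCm38.p6), covering 250 bases before to 50 after each start, were found for 69 of the 78 genes and are given as context for a family whose members are read from many loci. The ETS motif CCGGAAG, bound by GABPA and relatives, was present on either strand in 26 of 69 promoters (37.7%), against 21.9% of the promoters of tested genes and 9.93% of all 27025 promoters. The YY1 motif AAGATGGC was present in 12 (17.4%, against 5.87% of tested genes and 3.19% of all) and the NRF1 motif GCGCATGC in 8 (11.6%, against 6.30% and 3.05%). At least 1 of these 3 motifs was found in 38 of the 69 promoters, or 55.1%, compared with 30.9% of tested genes. In contrast, the GC box GGGCGG was present in 49.3% of the family and 68.5% of tested genes, the E-box CACGTG in 7.25% and 12.3%, and the ERR motif TCAAGGTCA in 0 of 69 and 0.318% of tested genes. None of the 6 motifs contains another, although their matches in a promoter may overlap. A match describes letters in a window and not a bound site. The next lines give the 80 bases before the start of 4 genes. Mrps26 and Mrps18a are the genes with the smallest p in the comparison of the groups, and Mrpl52 and Mrpl33 have the highest levels per length. Capitals mark an ETS match in either orientation, and in Mrpl33 the NRF1 match.
Mrps26, chr2:130563677-130563756, plus strand: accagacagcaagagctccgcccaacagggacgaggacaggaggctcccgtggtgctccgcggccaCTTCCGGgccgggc
Mrps18a, chr17:46110924-46111003, plus strand: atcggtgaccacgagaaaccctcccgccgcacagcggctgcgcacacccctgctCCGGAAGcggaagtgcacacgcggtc
Mrpl52, chr14:54426829-54426908, plus strand: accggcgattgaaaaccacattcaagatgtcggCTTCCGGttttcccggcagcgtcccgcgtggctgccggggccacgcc
Mrpl33, chr5:31613871-31613950, plus strand: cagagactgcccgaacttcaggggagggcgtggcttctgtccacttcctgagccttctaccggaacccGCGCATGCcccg

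The capitals begin 14 bases before the start in Mrps26, 26 in Mrps18a, 47 in Mrpl52 and 12 in Mrpl33. The matches thus differ in place, and those of the ETS motif differ in orientation. These starts are those of RefSeq. GENCODE, which gave the gene positions stated below, places the starts of Mrps26, Mrps18a and Mrpl33 further upstream. By that annotation the match in Mrps26 lies inside the gene. Fitted log2 fold changes of the tested genes with an ETS match had a median of -0.17, and those without one had a median of -0.11. The difference between these medians was not tested.

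The comparison of diseased-BWF1 with control PMs asked whether the 2 groups differ in the RNA of this family. No gene of the mitochondrial ribosome was called in either direction. Fitted values leaned lower in diseased-BWF1 mice, with a fold change below 1 in 54 of 76 genes (71.1%, against 49.1% of all tested genes) and a median log2 fold change of -0.13 (0.01 over all tested genes). The size of this lean depended on a single control mouse, as described below.

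Genes were called at an adjusted p under 0.05 (edgeR's quasi-likelihood test, adjusted by Benjamini-Hochberg over all tested genes) and a fold change of at least 1.5. Of all tested genes, 0.4% were called higher and 0.819% were called lower. The smallest adjusted p in the family was 0.161, for Mrps26. At an unadjusted p under 0.05, 1 gene had a higher fitted value (1.32% of 76, against 5.62% of all tested genes) and 5 had a lower one (6.58%, against 7.57%). The groups did not overlap in 1 gene that was higher in every diseased-BWF1 mouse (1.32%, against 9.81%) and in 10 genes that were lower in every diseased-BWF1 mouse (13.2%, against 11.1%). All of these shares lay near or under the share among all tested genes, so that the family did not stand out by single genes.

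The absence of calls does not show equal levels. The 95% interval of the fold change lay within 1.5-fold in both directions for 23 of 76 genes (30.3%, against 31.2% of all tested genes). It reached beyond 1.5-fold lower in 36 genes, beyond 1.5-fold higher in 12, and beyond both in 5. The mean normalised count of a gene ranged from 9.66 to 169 with a median of 54.6, compared with a median of 104 for all tested genes, and the median standard error of the log2 fold change was 0.21 in the family and in all tested genes.

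**Figure D2:**
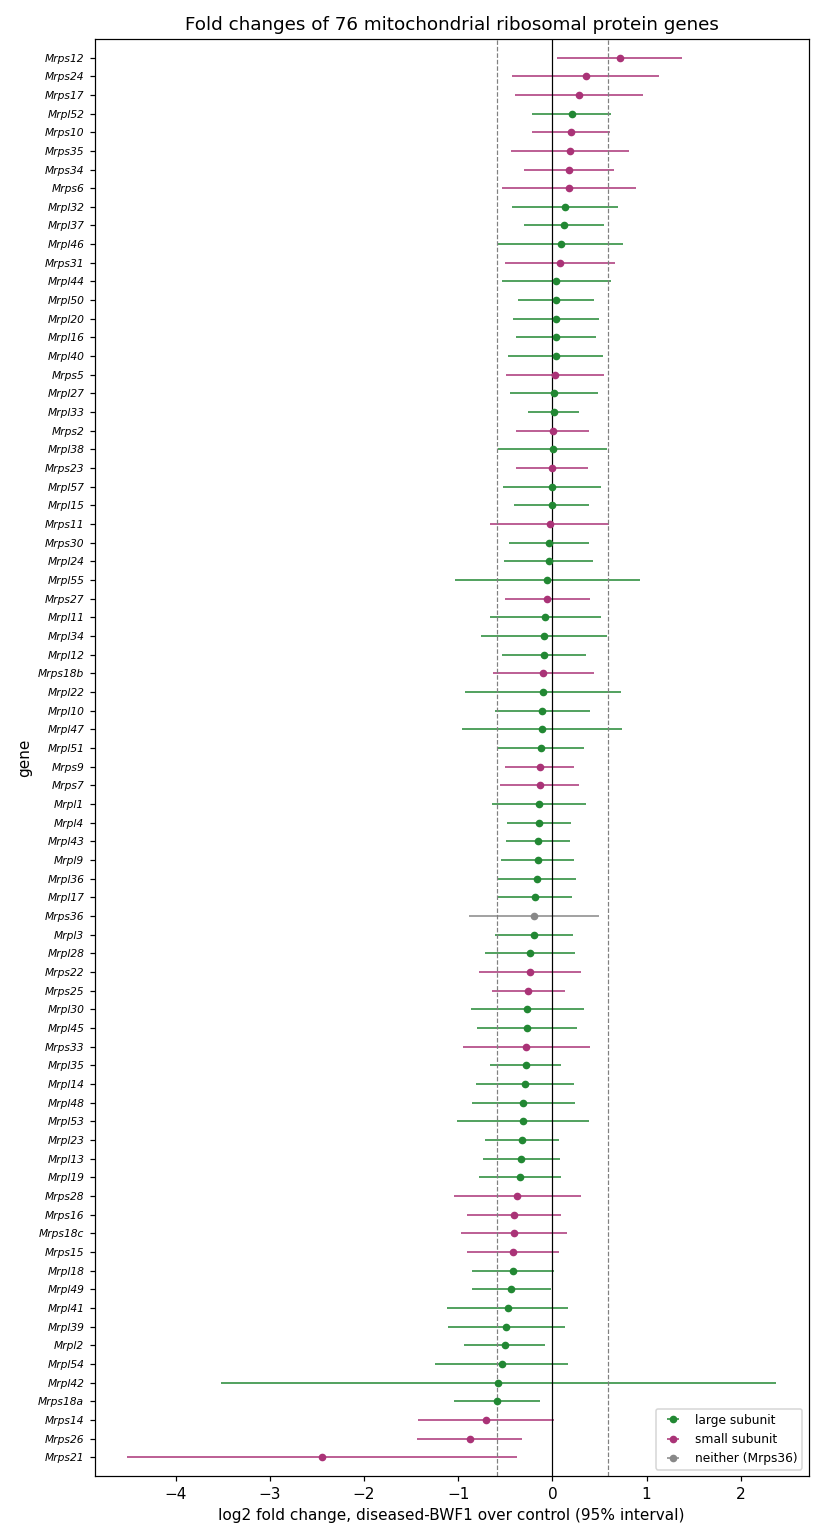
Log2 fold change of diseased-BWF1 over control for the 76 tested genes (points) with 95% intervals (lines), coloured by subunit and ordered by value; dashed lines mark a fold of 1.5 in each direction. The points run from -2.44 for Mrps21 to 0.71 for Mrps12, and the interval includes 0 in 70 genes.

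Mrps26 encodes a mitochondria-specific protein of the small subunit and lies on chromosome 2 (GRCm38, chr2:130563742-130568695, plus strand). Its normalised read counts were 73.6, 80.4 and 109 in Control 1 to 3 and 40.8, 59.9 and 42.3 in BWF1 1 to 3. The groups were fully separated, with the control mice on top, and the means were 87.5 ± 18.5 and 47.7 ± 10.6 (SD, n = 3). The log2 fold change was -0.88 (95% interval -1.44 to -0.32), with an adjusted p of 0.161 in edgeR's quasi-likelihood test. Without 1 mouse at a time it lay between -1.07 and -0.69.

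Mrps18a encodes a relative of bacterial ribosomal protein S18 that sits in the large subunit of mitochondria alone, so it was counted as mitochondria-specific, and lies at chr17:46110986-46128910, plus strand. Normalised counts were 72.0, 87.6 and 99.4 in controls and 66.4, 52.8 and 53.4 in diseased-BWF1 mice. The groups were separated by the small gap between Control 1 and BWF1 1. Its log2 fold change was -0.59 (95% interval -1.04 to -0.13, adjusted p = 0.254, edgeR's quasi-likelihood test). Its relatives Mrps18b and Mrps18c, whose products belong to the small subunit, overlapped between the groups. Normalised counts of Mrps18b were 48.8, 41.2 and 52.6 in controls and 55.9, 39.6 and 38.3 in diseased-BWF1 mice, for a log2 fold change of -0.10 ± 0.23 (SE). Those of Mrps18c were 60.4, 40.2 and 64.0, and 44.6, 35.5 and 44.3, for a log2 fold change of -0.41 ± 0.24. The 3 paralogues thus had fitted values on the same side of 0, and differences between them were not tested.

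Mrps21, a small subunit gene with a bacterial counterpart, had the lowest fold change and the widest spread among the genes with separated groups. It lies at chr3:95862634-95871519, minus strand. Raw counts were 25, 17 and 53 in controls and 6, 0 and 12 in diseased-BWF1 mice, and normalised counts were 20.7, 17.5 and 60.6, and 5.69, 0 and 12.1. Control 3 stood far above the other mice, and BWF1 2 had no count. The log2 fold change was -2.44, its 95% interval ran from -4.51 to -0.37 and its adjusted p was 0.295 (edgeR's quasi-likelihood test). Without 1 mouse at a time it ranged from -3.43 to -1.67. The counts come from a single transcript record, and 5.30% of its 75-base sequences also occur in the pseudogene Gm6181, so that reads could be split between both.

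Mrpl2 and Mrpl49 completed the genes with a lower fitted value at an unadjusted p under 0.05. Mrpl2, a protein near the peptidyl transferase centre, had normalised counts of 72.8, 82.4 and 83.4 in controls and 46.4, 65.0 and 57.4 in diseased-BWF1 mice (log2 fold change -0.51, 95% interval -0.93 to -0.08). Mrpl49, a mitochondria-specific protein of the large subunit, had 73.6, 67.0 and 76.6, and 60.7, 54.8 and 45.3 (log2 fold change -0.44, 95% interval -0.86 to -0.02). In both genes the control mice lay close together and the diseased-BWF1 mice lay below them. The adjusted p values were 0.295 and 0.358 (edgeR's quasi-likelihood test).

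Mrps12 was the only gene of the family whose normalised counts were higher in every diseased-BWF1 mouse. It encodes a protein of the decoding centre of the small subunit and lies at chr7:28739641-28741820, minus strand. Normalised counts were 20.7, 20.6 and 28.6 in controls and 37.9, 47.7 and 29.2 in diseased-BWF1 mice. BWF1 3 lay just above Control 3, and the other mice were well apart. The log2 fold change was 0.71 (95% interval 0.05 to 1.38, adjusted p = 0.341, edgeR's quasi-likelihood test), and between 0.53 and 0.89 without 1 mouse at a time.

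Normalised counts of Mrps14, a small subunit gene with a bacterial counterpart, were 24.0, 36.1 and 25.1 in controls and 19.0, 20.3 and 13.1 in diseased-BWF1 mice, for a log2 fold change of -0.70 ± 0.31 (SE). In Mrpl18, a large subunit gene with a bacterial counterpart, they were 90.2, 88.6 and 118, and 73.0, 65.0 and 84.6 (-0.42 ± 0.19). In Mrpl13, also a large subunit gene of bacterial type, they were 70.3, 69.03 and 75.4, and 58.8, 64.0 and 48.4 (-0.33 ± 0.17). The separation was narrow in Mrps14, Mrpl13 and Mrpl18 alike, with neighbouring mice of the 2 groups a few counts apart. Mrpl23, at the exit of the peptide tunnel, and Mrpl35, named here after its values were seen, make up the 10 genes that were lower in every diseased-BWF1 mouse, with log2 fold changes of -0.32 ± 0.17 and -0.29 ± 0.16. With 3 mice against 3, an exact two-sided permutation test of a single gene cannot give a p below 0.1.

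**Figure D3:**
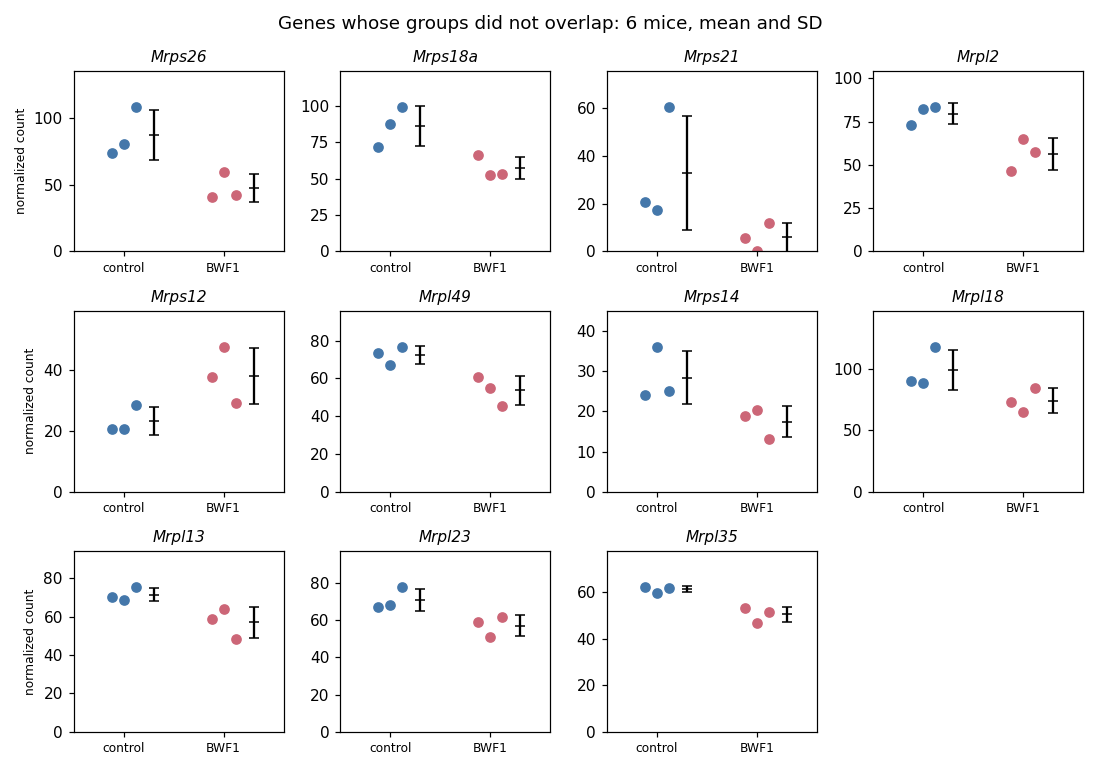
Normalised read count of the 11 genes whose groups did not overlap, in order of p from Mrps26. Each point is 1 mouse, blue for control and red for diseased-BWF1, and the black dash with bar is the mean and SD of 3 mice; the axes start at 0, which cuts off the lower end of a bar in Mrps21, and Mrps12 is the only one with the diseased-BWF1 mice above.

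Unlike Mrpl2 above, the genes Mrpl3, Mrpl10 and Mrpl12, for proteins near the catalytic centre and in the stalk of the large subunit, overlapped between the groups. Mrpl3, which lies near the peptidyl transferase centre, had normalised counts of 171, 142 and 145 in controls and 158, 109 and 135 in diseased-BWF1 mice (log2 fold change -0.20 ± 0.18, SE). For Mrpl10, at the base of the stalk that recruits translation factors, the counts were 74.5, 113 and 122, and 86.3, 104 and 98.7 (-0.11 ± 0.22). For Mrpl12, the stalk protein that is also reported to bind the mitochondrial RNA polymerase, they were 65.4, 92.7 and 76.6, and 82.5, 72.1 and 66.5 (-0.09 ± 0.19). In each of these genes the range of the control mice was wider than the distance between the group means. The 95% interval of Mrpl12, -0.54 to 0.36, lay within 1.5-fold in both directions.

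Mrpl33 and Mrpl52, the genes with the highest levels per length, overlapped between the groups. Normalised counts of Mrpl33 were 155, 155 and 165 in controls and 161, 164 and 156 in diseased-BWF1 mice. All 6 mice lay close together, and the log2 fold change was 0.01 with a 95% interval of -0.26 to 0.29. Those of Mrpl52 were 83.6, 63.9 and 78.9, and 89.1, 97.5 and 75.6 (0.20, -0.22 to 0.63). Of the other genes at the upper end, Mrps15 had a log2 fold change of -0.42 ± 0.21 (SE) and Mrps33 of -0.28 ± 0.29. In Mrps33, normalised counts were 58.8, 64.9 and 119 in controls and 62.6, 64.0 and 73.6 in diseased-BWF1 mice, and Control 3 alone stood apart.

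Genes of large subunit proteins with a further known role also overlapped between the groups. Mrpl45, which ties the ribosome to the inner membrane, had normalised counts of 60.4, 43.3 and 58.3 in controls and 54.0, 37.6 and 43.3 in diseased-BWF1 mice (log2 fold change -0.27 ± 0.23, SE). Mrpl44, an RNase III-like protein, had 45.5, 36.1 and 64.0, and 55.0, 47.7 and 47.4 (0.04 ± 0.25). Mrpl41, a mitochondria-specific protein, had 27.3, 33.0 and 45.7, and 28.4, 23.4 and 24.2 (-0.48 ± 0.27). In Mrpl41 only Control 1 and BWF1 1 crossed over. Mrpl32, whose protein is cleaved by the m-AAA protease before it joins the ribosome, had a log2 fold change of 0.13 ± 0.24, and Mrps30, a mitochondria-specific protein of the large subunit, of -0.04 ± 0.18.

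In the small subunit, Mrps16, Mrps22 and Mrps34 are genes in which mutations cause human defects of mitochondrial translation. Normalised counts of Mrps16 were 56.3, 42.2 and 58.3 in controls and 40.8, 34.5 and 43.3 in diseased-BWF1 mice (log2 fold change -0.41 ± 0.21, SE). Those of Mrps22 were 33.9, 29.9 and 40.0, and 26.5, 32.5 and 29.2 (-0.24 ± 0.23). Those of Mrps34 were 38.9, 34.0 and 42.3, and 37.9, 45.7 and 47.4 (0.18 ± 0.20). The groups overlapped in each. Of the 75-base sequences of Mrps34, 32.4% also occur in Nme3, an overlapping gene on the same strand, so its counts may hold reads of that gene. Mrps36 had normalised counts of 28.1, 31.9 and 32.0, and 37.0, 23.4 and 20.2 (-0.19 ± 0.29), and 11.3% of its 75-base sequences occur in pseudogenes. Among the genes at the low end of the levels, log2 fold changes were -0.12 ± 0.36 for Mrpl47, 0.19 ± 0.27 for Mrps35, -0.35 ± 0.19 for Mrpl19 and -0.19 ± 0.17 for Mrpl17.

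Both subunits and both kinds of protein had medians below 0. In the large subunit, 37 of 49 tested genes had a fold change below 1 and the median log2 fold change was -0.14, and in the small subunit these were 16 of 26 and -0.08. Of the proteins with a bacterial counterpart, 33 of 45 were below 1 with a median of -0.13, and of the mitochondria-specific ones 20 of 30 with a median of -0.11. The differences between the medians of these classes were not tested. Summed levels per length of all 78 genes were 2242, 2209 and 2374 in Control 1 to 3 and 2312, 2061 and 2195 in BWF1 1 to 3. On this scale the groups overlapped.

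Control 3, aged 30 weeks against 33 for the other controls, stood apart from the other 5 mice in this family and beyond it. The normalised counts of the 78 genes summed to 4426, 4438 and 5289 in Control 1 to 3 and to 4423, 4148 and 4196 in BWF1 1 to 3. It was the highest of the 6 mice in 41 of 76 genes and the lowest in 3. Over all tested genes it was the highest in 24.4% and the lowest in 25.5%, each more often than any other mouse. Normalised counts of the nuclear oxidative phosphorylation genes also had their largest sum in Control 3, 18717 against 15159 to 16242 in the others. Those of the cytosolic ribosomal protein genes were largest in BWF1 2, at 168903, with Control 3 next at 155019. For the mitochondrial ribosome, the median deviation of Control 3 from the mean over mice was 0.23 on the log2 scale, compared with -0.11 to 0.03 for the others. BWF1 2 was the lowest of the 6 in 27 genes. Without Control 3 the median log2 fold change was -0.05, with 43 genes below 1 and 33 above, and 1 gene in each direction had an unadjusted p under 0.05. Leaving out each mouse in turn gave medians between -0.19 and -0.05, all below 0.

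**Figure D4:**
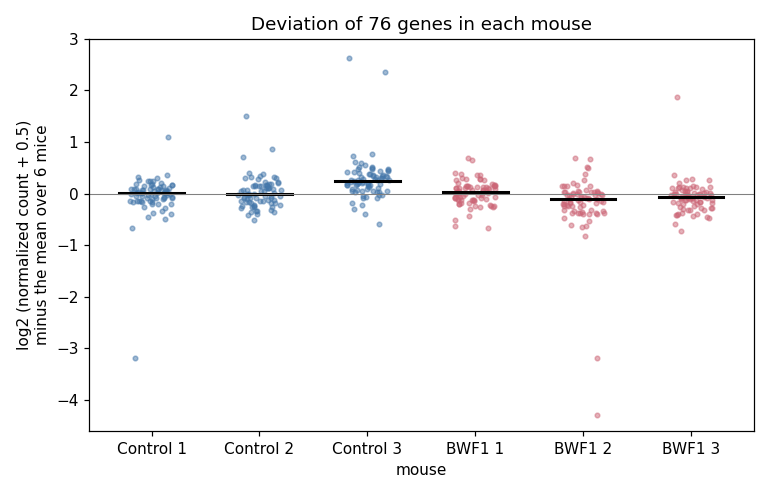
Deviation of each tested gene from its mean over 6 mice, as log2 of the normalised count plus 0.5 (points, blue for control and red for diseased-BWF1), with the median over 76 genes per mouse (black line). The median of Control 3 is 0.23 and those of the other 5 mice lie between -0.11 and 0.03.

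The counts of a gene were sums over its transcript records, and curated records held 95.5% to 96.8% of the family's counts. A total of 50 genes had 1 record and 28 had more, with at most 8. In a few genes the shares of the records differed widely between mice. Mrpl55, a large subunit gene with a bacterial counterpart named here after its values were seen, had normalised counts of 18.2, 22.7 and 14.9 in controls and 28.4, 11.2 and 14.1 in diseased-BWF1 mice. One curated record of Mrpl55 took 100%, 54.5% and 0% of its counts in Control 1 to 3 and 0% in each diseased-BWF1 mouse. Another took 0%, 0% and 69.2% in controls and 70.0%, 81.8% and 100% in diseased-BWF1 mice, so the groups were separated only narrowly, by Control 3 and BWF1 1. In Mrpl2 a second curated record held 56.2% of the counts in Control 3 and 0% in the other mice. These shares rest on few reads, and splitting reads between records that share most of their sequence is an estimate.

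Sharing of sequence with other genes limits some members. More than 5% of the 75-base sequences were shared with another gene in 13 of the 78. The share was highest in Mrpl53, at 78.8% with the overlapping gene Gm42688 on the same strand, and its log2 fold change of -0.32 ± 0.30 (SE) therefore may hold both. Mrpl23 and Mrps18b shared 10.1% and 12.1%, mainly with pseudogenes. Mrpl42, named like Mrpl53 after its values were seen, had normalised counts of 0, 12.4 and 22.9 in controls and 6.64, 0 and 16.1 in diseased-BWF1 mice, with 1 mouse of each group at 0.

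Other genes of mitochondrial gene expression were compared in the same way, and none was called. The ribosomal proteins that carry other symbols, such as Dap3 and Ptcd3, gave 2 of 5 tested genes above 1 and 3 below, the most different being Aurkaip1 (log2 fold change -0.45 ± 0.24, SE) and Gadd45gip1 (0.33 ± 0.27). Dap3 was at 0.11 ± 0.30 and Ptcd3 at -0.11 ± 0.19. Of 27 tested assembly factors, 13 were above 1 and 14 below with a median log2 fold change of 0.00. The smallest p in each direction belonged to the pseudouridine synthase gene Trub2 (-0.35 ± 0.17) and the GTPase gene Gtpbp10 (0.54 ± 0.33). Translation factors had a median of -0.06 over 15 tested genes, with Taco1, a translational activator, at -0.58 ± 0.30 and Mtif3, an initiation factor, at 0.60 ± 0.34. Mtrf1, a release factor-like gene, was at 0 in all mice.

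Mitochondrial tRNA synthetase genes, which charge the tRNAs that the mitochondrial ribosome uses, held the gene with the smallest adjusted p among these lists of mitochondrial gene expression. Normalised counts of Mars2, for methionine, were 12.4, 8.24 and 6.86 in controls and 21.8, 34.5 and 36.3 in diseased-BWF1 mice. The groups were clearly separated, and the log2 fold change was 1.71 ± 0.36 (SE) with an adjusted p of 0.0839 in edgeR's quasi-likelihood test. Iars2, for isoleucine, was at -0.48 ± 0.15 and Vars2, for valine, at 0.33 ± 0.18. Over all 20 synthetase genes, 11 were above 1 and 9 below, with a median of 0.08.

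For 20 genes of mitochondrial DNA maintenance, transcription and RNA processing the median log2 fold change was -0.07, with the exonuclease gene Mgme1 at -0.68 ± 0.39 (SE) and the tRNA-processing gene Elac2 at 0.35 ± 0.24. Regulators of this programme had 7 of 10 tested genes above 1 and a median of 0.15. Among them were the PGC-1-related coactivator gene Pprc1 (0.44 ± 0.19), Sp1 (0.35 ± 0.18), Ppargc1b (-0.36 ± 0.31) and Max (-0.17 ± 0.18). Genes encoded in mitochondrial DNA include those of the ribosomal RNAs of the same particle. None of the 41 looked up had a transcript record matched to it in the count data, so they could not be compared.

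The ribosomal proteins of the cytosol and the nuclear subunits of oxidative phosphorylation lay on opposite sides of the mitochondrial ribosome. Of 81 tested cytosolic ribosomal protein genes, 73 had a fold change above 1 with a median log2 fold change of 0.20, and 0 were called. Of 75 tested oxidative phosphorylation genes, 68 were below 1 with a median of -0.18. Of these 75, 1 was called lower, against 0.819% of all tested genes. It was Ndufs5 of complex I, with counts of 35, 34 and 14 in controls and 0, 0 and 2 in diseased-BWF1 mice. Among the 75, 17 were lower in every diseased-BWF1 mouse (11.1% of all tested genes were) and 1 was higher (9.81%). Among the 81 cytosolic genes, 2 were higher in every diseased-BWF1 mouse and 0 were lower. The median of the mitochondrial ribosome, -0.13, lay between the medians of these lists and nearer to that of the oxidative phosphorylation genes. These medians describe 6 mice in which Control 3 weighs on the value, and the lists were not tested against each other.

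**Figure D5:**
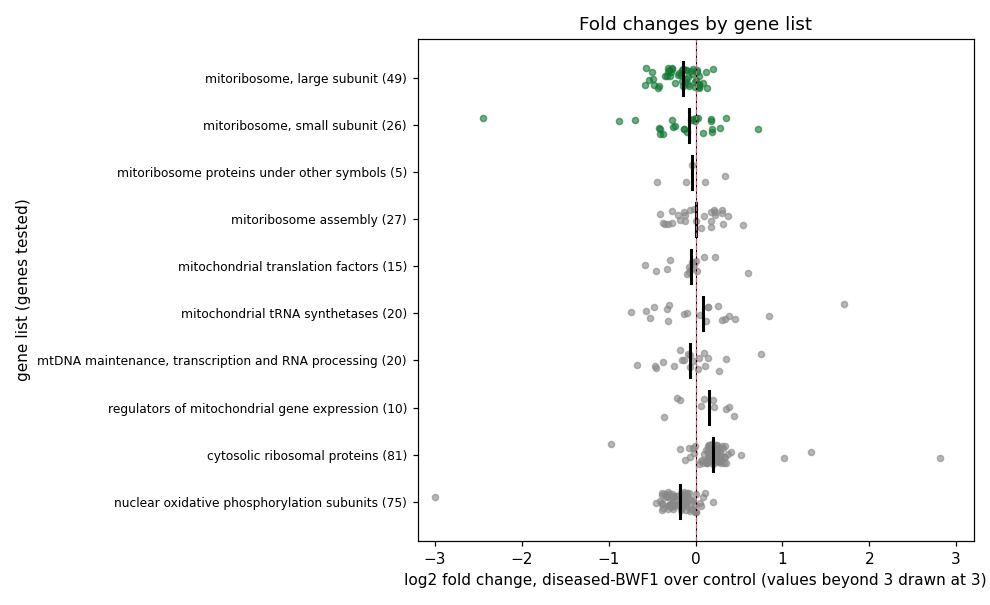
Log2 fold change of diseased-BWF1 over control for the tested genes of each list (points, green for the 2 subunits of the mitochondrial ribosome and grey for the other lists), with the median of the list (black line), 0 (thin line) and the median of all tested genes (dashed, 0.01). The number of genes stands beside each list, 1 oxidative phosphorylation gene beyond the axis is drawn at its edge, and list medians run from -0.18 to 0.20.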

How the data were processed

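PMs from 3 control and 3 diseased-BWF1 mice were profiled by stranded mRNA-seq. The authors deposited estimated counts per RefSeq transcript record as whole numbers, without normalisation. Their processing notes name Salmon 0.8.0, DESeq2 and GRCm38.p6. How reads shared between records were assigned is not given in the sources used here. Of 107193 records, 20727 without a RefSeq gene were left out, and the others were summed per gene symbol.

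Computations ran in R 4.3.3. The 10505 genes passing filterByExpr were tested with TMM normalisation and edgeR's (4.0.16) quasi-likelihood test at default settings (common dispersion 0.0543), with no covariate and Benjamini-Hochberg adjustment. The standard error was the log2 fold change divided by the square root of F, and the 95% interval used the test's degrees of freedom. Normalised counts used DESeq2's size factors, and DESeq2 (1.42.0) and limma (3.58.1) gave alternatives. A gene's groups did not overlap where all 3 values of one group exceeded all 3 of the other. Scripts were tested on simulated data. Positions, lengths and shared 75-base sequences came from GENCODE vM21 (GRCm38) and promoters from RefSeq.

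The members and lists were chosen with earlier results of these data known. Genes named were those called, up to 8 per direction with the smallest p among those without overlap, those not tested, the 5 highest and 5 lowest levels per length, 17 with known special roles and, in each other list, those called and up to 2 per direction, of which some are given. Floors cover counting error only. Separate libraries were taken as separate mice, and p values measure the spread between them. The alternatives tried are given in the closing section. A few of the genes so chosen are left unreported.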

Additional observations from a re-analysis of the deposited data

How the results depend on the processing

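The number of genes of the mitochondrial ribosome called stayed at 0 in both directions in all 15 alternatives, and the smallest adjusted p of any of them was 0.128, for Mrps26 with DESeq2. The median log2 fold change of the family stayed below 0 in all, and leaving out 1 mouse at a time moved it between -0.19 and -0.05. Of the 76 tested genes, 41 kept the sign of their fold change in all alternatives and 35 changed it in at least 1. The count of all tested genes called, 128, was less stable. It was 372 with DESeq2, 259 with no low-count filter, 84 with at least 10 counts in every library and 16 with curated mRNA records alone, and ranged from 21 to 51 without 1 mouse at a time. In the lists of other genes of mitochondrial gene expression, 1 gene was called with DESeq2 (Mars2) against 0 in the edgeR test. This count leaves out the oxidative phosphorylation and cytosolic ribosomal protein genes. The cause of these differences was not tested, apart from fewer mice or records. Replicate numbers are shared by different animals and were not taken as pairs. Deviations of same-numbered mice correlated at 0.117, 0.00556 and 0.157, and those of differently numbered mice at -0.144 to 0.0573. These values do not decide whether the numbers mark pairs. With the replicate block 38 genes were called, none of them in the family. At 3 mice per group and a median of 54.6 normalised counts per gene, the 95% interval lay within 1.5-fold for only 23 of the 76 genes.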
